A study of Homo sapiens with 8 samples.

Results

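TRIM genes encode the tripartite motif proteins, and 54 of the 18377 genes that could be read from these arrays carry a TRIM symbol. A gene was taken as a member where a probe set named it alone by a symbol made of TRIM and a number, and where several did, the one with the highest mean signal was used. The 54 members have 66 probe sets, and 7 members have more than 1. Another 15 TRIM symbols, TRIM34, TRIM6, TRIM13, TRIM39 and TRIM58 among them, occur only on probe sets shared with other genes and were not analysed here. The cells were A549, a human lung adenocarcinoma line with features of alveolar type II epithelium, held at an air-liquid interface and measured on 8 whole-transcript arrays, 2 in each of 4 groups. In the morning the cells received primary pollutants (the fresh urban mix of the labels) for 4 hr, and in the evening of that day other cells received the photochemically altered (PCA) pollutants (the aged mix), with control cells in humidified incubator air each time and RNA taken 9 hr later. Mixture, time of day and exposure run therefore cannot be told apart, and since all arrays come from a single run with each mixture, the p-values measure the spread between cultures of that run.

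A typical TRIM protein has an N-terminal RING domain that makes it a ubiquitin ligase, then B-box domains and a coiled coil through which it forms dimers and larger assemblies. The C-terminal domain, most often a PRY-SPRY domain, selects the target. Many members act in antiviral defence, where they restrict viruses directly or attach ubiquitin to the sensors and adaptors that lead to interferon, and some of these are themselves induced by interferon. Other members are transcriptional cofactors, muscle proteins or microtubule proteins.

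On the log2 scale the member signals ran from 4.21 to 11.16, and the median over members lay between 7.18 and 7.30 on each of the 8 arrays. The median standard deviation between the 2 arrays of a group was 0.0826 over members, and log2 differences between PCA pollutants and evening control had a median standard error of 0.088, against 0.091 for all genes. The epithelial keratin genes KRT8 and KRT18 gave signals of 13.49 or more on every array, and KRT19 lay at 8.86 to 9.05. After the PCA pollutants the E-cadherin gene CDH1 fell (-1.11, adjusted p = 0.000699), and EPCAM gave -0.44 (adjusted p = 0.189). The surfactant genes SFTPC and SFTPB and the type II protease gene NAPSA had group means between 6.15 and 6.50, below the array medians of 6.93 to 7.03, and of the type II markers listed ABCA3 alone lay above them, at 7.55 to 7.77. The type II identity was thus not borne out by its defining markers. The leukocyte marker PTPRC lay at 4.08 to 4.51, under the signal limit of 30 (4.91 on the log2 scale), and PECAM1 of endothelium lay at 5.24 to 5.60. The other immune markers were above the limit, with CD68, a lysosomal protein gene also active outside macrophages, at 9.47 to 9.85, CD14 at 6.63 to 7.03, CD79A at 6.18 to 6.58 and CD3E at 5.41 to 5.62, and none of them differed after the PCA pollutants at an adjusted p under 0.05. Of the fibroblast markers, COL1A1 was lower (-0.37, adjusted p = 0.0158) and DCN higher (0.42, adjusted p = 0.0366) after the PCA pollutants and PDGFRB differed by 0.12 (adjusted p = 0.264). The DCN mean was 4.82 in the evening control, under the signal limit, and 5.24 after the PCA pollutants, so its difference lies near that limit. The part of the epithelial and fibroblast marker differences in the results on TRIM genes was not tested. All arrays are of the A549 line, so the markers describe its expression and not a mix of cell types. In bulk RNA, fewer cells that express a gene and less RNA per cell cannot be told apart.

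TRIM31 was the 1 TRIM gene that changed after the PCA pollutants, and it fell. TRIM31 is a RING ligase of epithelia that adds ubiquitin chains to the antiviral adaptor MAVS and marks the inflammasome protein NLRP3 for degradation. Its log2 signal was 7.17 and 7.28 on the evening control arrays and 6.55 and 6.20 on the PCA arrays, while the morning control arrays gave 7.02 and 6.93 and the primary pollutant arrays 7.01 and 6.87. Both PCA arrays thus lay below all 6 other arrays. The difference from the evening control was -0.85 (SE 0.123, n = 2 arrays per group, adjusted p = 0.00543 in limma). Its other probe sets gave -0.60 (adjusted p = 0.00488) and -0.88 (adjusted p = 0.00345). They read the same gene on the same arrays and are not independent measurements. The verbs rise, fall and change are kept here for genes whose adjusted p was under 0.05 and whose signal differed 1.5-fold or more, and 3.53% of the 17470 genes tested in this comparison did so, 2.66% downwards and 0.876% upwards. The difference was -0.60 against the morning control (adjusted p = 0.0181), and it did not pass a test against the 1.5-fold limit itself (treat, adjusted p = 1). NLRP3 gave 0.20 (adjusted p = 0.11) and MAVS -0.29 (adjusted p = 0.0494).

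**Figure D1:**
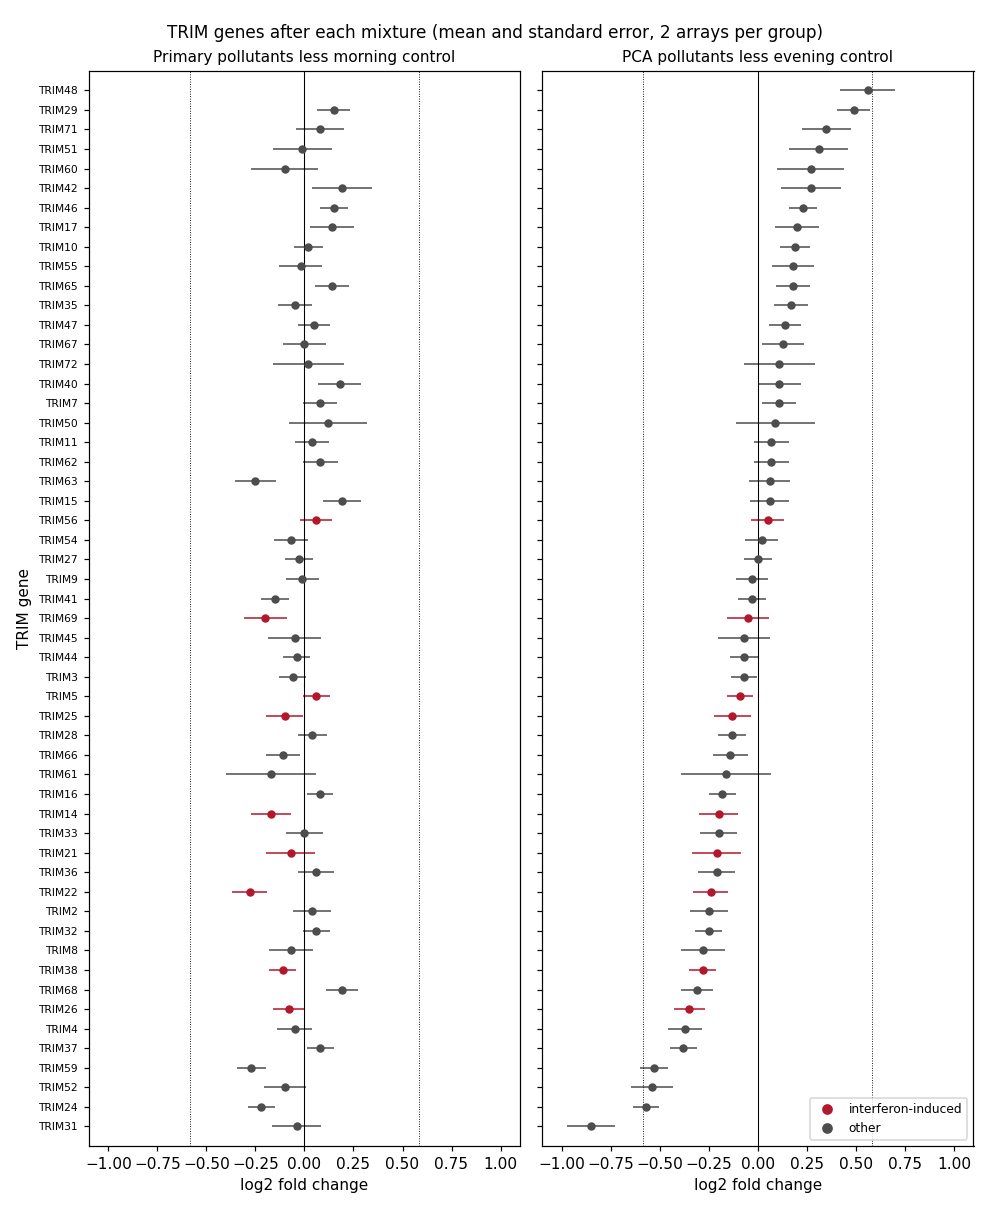
Log2 fold change (x axis) of each TRIM gene (y axis, ordered by the PCA value) after the primary pollutants (left) and the PCA pollutants (right), as the difference of group means of 2 arrays with its standard error as a bar. Red points are the 9 interferon-induced genes, dotted lines mark a 1.5-fold change, TRIM48 was not tested on the left, and TRIM31 at -0.85 is the 1 gene past a dotted line.

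Without the fold limit, 12 of the 54 members passed an adjusted p of 0.05 for the PCA pollutants, 10 lower and 2 higher, and TRIM48, 1 of the higher, entered the test only through a single PCA array. That is 22.2% of members, near the 19.7% of all genes that passed (14.1% lower and 5.63% higher). With an evening control or PCA array left out, fewer members passed. Such a fit leaves 1 array in a group and is less precise for all genes. The share of all genes that passed is not given for it, so single arrays and lost precision cannot be told apart. With an array left out, TRIM24 stayed at -0.58 to -0.55, TRIM31 at -1.03 to -0.67 and TRIM59 at -0.58 to -0.48. Of all 54 members, 23 had both PCA arrays below both evening control arrays and 14 had both above, where 36.6% and 31.7% of all genes did.

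TRIM24, TRIM59 and TRIM52 lay just short of a 1.5-fold difference. In the paper, TRIM52 and TRIM31 are both listed as lower after the PCA mixture past a 1.5-fold limit. Here TRIM52 was 1.45-fold lower, and why this differs was not tested. TRIM24 is a chromatin reader with a PHD finger and a bromodomain that acts with nuclear receptors and adds ubiquitin to p53. It gave 9.84 and 9.80 in the evening control and 9.25 and 9.25 after the PCA pollutants, a difference of -0.57 (SE 0.0683, adjusted p = 0.00301). Its arrays after the primary pollutants (9.45 and 9.41) also lay below those of the morning control (9.68 and 9.61). TRIM59, a ligase anchored in membranes, gave 8.33 and 8.23 in the evening control and 7.72 and 7.78 after the PCA pollutants (-0.53, SE 0.0729, adjusted p = 0.00477). For TRIM59 too the primary pollutant arrays (8.09 and 8.13) lay between the morning control (8.40 and 8.36) and the PCA arrays. TRIM52, a short member without a SPRY domain, gave 8.37 and 8.16 against 7.81 and 7.65 (-0.54, SE 0.106, adjusted p = 0.0148). Against the morning control TRIM24 gave -0.4 and TRIM52 -0.38, while TRIM59 gave -0.63 and passed both limits (adjusted p = 0.0041 in limma). With arrays centred on their medians all 3 passed the fold limit beside TRIM31, whereas with arrays scaled to ribosomal protein genes none did and TRIM29 passed it upwards, as did TRIM48, whose test rests on 1 PCA array, so that the split of higher and lower calls went from 0 and 1 to 0 and 4 or to 2 and 1.

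**Figure D2:**
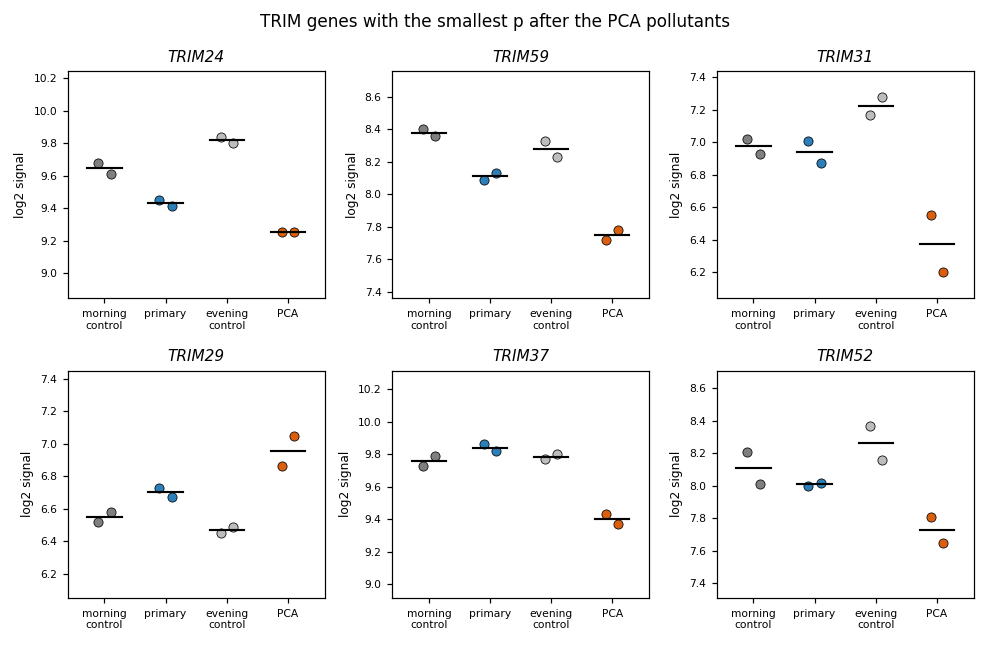
Log2 signal (y axis) on each array of the 6 TRIM genes with the smallest p for the PCA pollutants, by group (x axis), with points for arrays and a bar for the mean of 2. The PCA arrays lie below both evening control arrays in each panel except that of TRIM29, where they lie above, and the y axes do not start at 0.

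TRIM37, TRIM26, TRIM4, TRIM38, TRIM68 and TRIM32 made up the rest of the lower group. TRIM37 keeps the peroxisomal import receptor PEX5 stable and limits centrosome assembly, and its loss causes mulibrey nanism. It gave 9.77 and 9.80 in the evening control and 9.43 and 9.37 after the PCA pollutants (-0.38, adjusted p = 0.0111). After the primary pollutants it gave 9.86 and 9.82 against 9.73 and 9.79, so the responses had opposite signs. TRIM4, which adds ubiquitin to the RNA sensor RIG-I, gave 7.79 and 7.92 against 7.43 and 7.54 (-0.37, adjusted p = 0.0258). TRIM68, a coactivator of the androgen receptor, gave 8.46 and 8.46 against 8.15 and 8.14 (-0.31, adjusted p = 0.037). TRIM32, named after its values were seen, is mutated in a limb-girdle muscular dystrophy and differed by -0.25 (adjusted p = 0.0443).

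TRIM29 and TRIM48 were the 2 higher members. TRIM29 lacks a RING and is a gene of basal and squamous epithelium. It gave 6.45 and 6.49 in the evening control and 6.86 and 7.05 after the PCA pollutants (0.49, SE 0.0835, adjusted p = 0.00928), and 6.73 and 6.67 after the primary pollutants against 6.52 and 6.58. Both mixtures thus gave arrays above those of their control, though the primary difference of 0.15 did not pass (adjusted p = 0.669). TRIM48 gave 4.21 and 4.44 against 4.96 and 4.81 (0.56, SE 0.142, adjusted p = 0.033). It was tested only because 1 PCA array reached the signal limit, so its value is a description and supports nothing. Its morning control arrays (4.83 and 4.63) lay nearly as high as the PCA arrays, and against them the difference was 0.16 (adjusted p = 0.429). TRIM48 and TRIM51 have closely related copies in the genome, as TRIM16 has in TRIM16L, and whether their probe sets also bind transcripts of the copies was not tested.

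By C-terminal domain, the 4 PHD and bromodomain members (TRIM24, TRIM28, TRIM33 and TRIM66) all lay lower after the PCA pollutants with arrays that did not overlap, at a median of -0.17, and TRIM24 passed the test at any fold. Of all genes, 36.6% lay lower without overlap and 14.1% lower past the test, and with 4 members the class is given as a description. TRIM28 is the corepressor that KRAB zinc finger proteins recruit to silence transposons. It gave 11.12 and 11.12 against 11.01 and 10.98 (-0.13, adjusted p = 0.238), a difference that came to 0 after rounding with arrays scaled to ribosomal protein genes. The 6 members with a RING and no known C-terminal domain had a median of -0.222, and TRIM31 and TRIM52 were the members of that class that passed the test. The 25 PRY-SPRY members had a median of 0.0676, with 4 lower and 1 higher past the test. The higher one was TRIM48, whose test rests on 1 PCA array and supports nothing. The 5 microtubule-binding members had a median of 0.126 and the 3 muscle members 0.0563, with none past the test. TRIM63, the muscle-wasting ligase also called MuRF1, gave 5.62 and 5.51 against 5.76 and 5.49 (0.06, adjusted p = 0.717). The median of all genes tested was -0.00169.

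The interferon-induced TRIM genes were set beside the others. Of 10 listed, 9 were measured: TRIM5, TRIM14, TRIM21, TRIM22, TRIM25, TRIM26, TRIM38, TRIM56 and TRIM69, with TRIM34 not analysed here. None of the 9 changed after the PCA pollutants. TRIM56 lay above 0 and the other 8 below, with a median of -0.201, against 0.0199 for the 45 other members. The median rests in part on 1 array, and without the second PCA array it was -0.0761. The count below 0 was 9 with arrays centred on their medians, 7 after quantile normalization and 6 with arrays scaled to ribosomal protein genes, a scaling that moved the median of all genes to 0.12. Relative to the median of all genes, the list lay at -0.2, a value that median centring and ribosomal scaling cannot alter since they shift all genes of an array alike, and at -0.211 after quantile normalization. In 6 of the 9 genes (66.7%) the PCA arrays did not overlap the evening control arrays, all lower, where 36.6% of all genes lay lower without overlap and 68.3% did not overlap in either direction.

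Among the interferon-induced members, TRIM26 and TRIM38 passed the test without the fold limit, the same share (22.2%) as in the other members. TRIM26, a ligase reported to act on IRF3, gave 8.45 and 8.36 in the evening control and 8.12 and 7.99 after the PCA pollutants (-0.35, SE 0.0794, adjusted p = 0.0231). TRIM38, which limits Toll-like receptor signalling by removing TAB2 and TAB3, gave 7.53 and 7.54 against 7.26 and 7.23 (-0.28, SE 0.0686, adjusted p = 0.028). Of its targets, TAB2 lay lower as well (-0.36, adjusted p = 0.0296) and TAB3 differed by -0.05 (adjusted p = 0.649). TRIM22, a restriction factor that blocks HIV transcription, gave 6.33 and 6.37 against 6.17 and 6.06 (-0.24, adjusted p = 0.094). After the primary pollutants it gave 6.14 and 5.99 against 6.27 and 6.41 (-0.28, adjusted p = 0.503). Its arrays lay below their own controls after both mixtures, and neither difference passed the test.

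The remaining 6 interferon-induced members showed smaller differences. TRIM14, a MAVS adaptor without a RING, gave 7.37 and 7.33 against 7.29 and 7.02 after the PCA pollutants (-0.20, adjusted p = 0.186). TRIM21, the cytosolic receptor for antibody-coated virus, gave 7.64 and 7.64 against 7.46 and 7.41 (-0.21, adjusted p = 0.259). TRIM25, the ligase that activates RIG-I, gave 9.43 and 9.58 against 9.47 and 9.27, and these arrays overlapped (-0.13, adjusted p = 0.323). The capsid-binding restriction factor TRIM5 differed by -0.09 (adjusted p = 0.341), TRIM69 by -0.05 (adjusted p = 0.783) and TRIM56, which acts on the STING pathway, by 0.05 (adjusted p = 0.661). With TRIM6, TRIM31 and TRIM35 added to the list, 11 genes were measured and TRIM31 was the 1 that fell. The median stayed at -0.201, as it had to with TRIM31 (-0.85) below it and TRIM35 (0.17) above it.

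**Figure D3:**
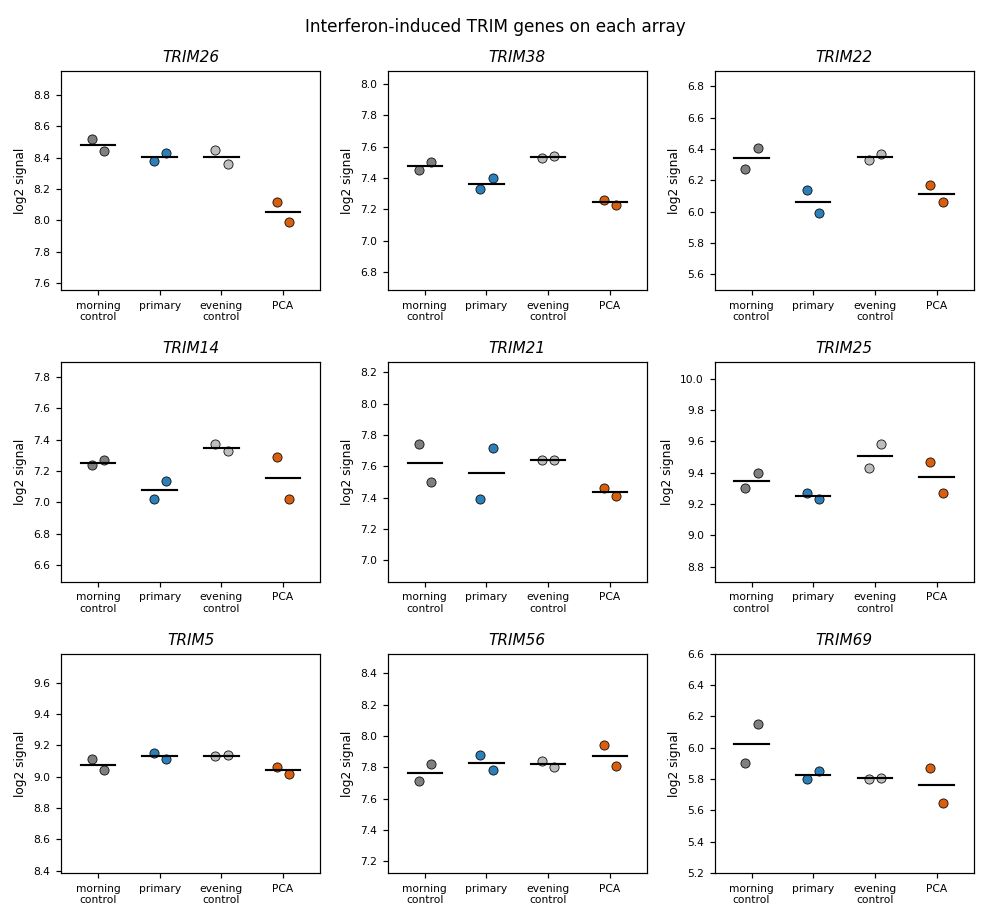
Log2 signal (y axis) of the 9 interferon-induced TRIM genes on each array, by group (x axis), with a bar for the mean of 2 arrays and genes in order of p for the PCA pollutants. The PCA arrays of TRIM26 (8.12 and 7.99) and TRIM38 (7.26 and 7.23) lie below all other arrays of their panels, and the y axes do not start at 0.

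Interferon acts on its target genes through the interferon-stimulated response element in their promoters. The letters GAAA, any 2 bases and GAAA again, which read TTTC, any 2 bases and TTTC on the other strand, were searched in the 250 bases before each listed start of a gene in RefSeq promoter sequences of GRCh38.p14, which matched 42 of the 54 members. Of these members 8 have several starts, and a match at any start counted. They occurred in 4 of 8 interferon-induced members (TRIM5, TRIM14, TRIM26 and TRIM69), in 3 of 34 other members (TRIM2, TRIM16 and TRIM44) and in 3.71% of the 27305 genes with a promoter sequence, whether or not they were read from the arrays. The letters of the interferon-gamma element, TTC, any 3 bases and GAA on either strand, occurred in 0 of 8 and 7 of 34, and in 8.09% of the same 27305 genes. TRIM2 and TRIM16 hold both motifs, at positions that do not overlap. A window of 100 bases is printed for the 4 interferon-induced members with a match, for PARP9 and IFIT1 as interferon-induced genes that fell, and for TRIM31, which fell and has no match in its 250 bases. Capitals mark the match. The windows are TRIM26 at chr6:30213546-30213645 on the minus strand, TRIM14 at chr9:98119223-98119322 on the minus strand, TRIM5 at chr11:5685075-5685174 on the minus strand, TRIM69 at chr15:44736421-44736520 on the plus strand, PARP9 at chr3:122564301-122564400 on the minus strand, IFIT1 at chr10:89392462-89392561 on the plus strand and TRIM31 at chr6:30113091-30113190 on the minus strand, each written 5′ to 3′ in the direction of the gene.
TRIM26: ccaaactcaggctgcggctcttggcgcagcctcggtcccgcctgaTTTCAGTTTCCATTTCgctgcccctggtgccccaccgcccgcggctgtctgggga
TRIM14: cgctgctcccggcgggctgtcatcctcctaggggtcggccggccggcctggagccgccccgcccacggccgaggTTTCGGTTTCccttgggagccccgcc
TRIM5: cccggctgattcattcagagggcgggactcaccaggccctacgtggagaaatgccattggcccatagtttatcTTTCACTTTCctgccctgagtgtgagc
TRIM69: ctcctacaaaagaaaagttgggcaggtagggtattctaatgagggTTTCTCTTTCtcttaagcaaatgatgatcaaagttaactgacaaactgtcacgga
PARP9: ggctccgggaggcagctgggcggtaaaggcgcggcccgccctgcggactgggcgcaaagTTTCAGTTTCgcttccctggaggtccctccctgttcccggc
IFIT1: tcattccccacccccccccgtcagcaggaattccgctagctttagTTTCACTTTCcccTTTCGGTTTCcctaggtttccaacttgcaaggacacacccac
TRIM31: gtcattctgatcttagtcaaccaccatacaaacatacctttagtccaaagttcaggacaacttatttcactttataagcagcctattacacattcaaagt

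After the PCA pollutants the interferon-induced members with a match gave -0.35 for TRIM26, -0.20 for TRIM14, -0.09 for TRIM5 and -0.05 for TRIM69. The other members with a match gave -0.25 for TRIM2, -0.18 for TRIM16 and -0.07 for TRIM44. All 7 lay below 0, as did 50.3% of all genes. With arrays scaled to ribosomal protein genes TRIM5 (0.03), TRIM69 (0.08) and TRIM44 (0.05) lay above 0, as did TRIM5 (0.01) and TRIM44 (0.05) after quantile normalization. Against the morning control TRIM44 gave 0.04 and TRIM2 -0.01. Of the 7, TRIM26 passed the test at any fold against the evening control. PARP9 gave -1.12 and IFIT1 -1.08 in the same comparison. Both were picked because they fell, and of the 38 tested genes of their list 7 fell and 1 rose (OAS1, 1.28). Whether the motif goes with the direction of a response was not tested.

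No TRIM gene changed after the primary pollutants, where 0% of the 17381 genes tested did. Of 53 members tested, 4 reached an unadjusted p of 0.05 in limma (7.9% of all genes did), and the lowest adjusted p was 0.462. The 4 were all lower: TRIM59 (-0.27), TRIM24 (-0.22), TRIM22 (-0.28) and TRIM63 (-0.25). TRIM63 gave 5.49 and 5.53 in the morning control and 5.20 and 5.32 after the primary pollutants, with no overlap. In all, 14 members had both primary pollutant arrays below both controls and 10 above, beside 21.7% and 17% of all genes. The interferon-induced members had a median of -0.0993, with 7 of 9 below 0, or 5 of 9 with arrays scaled to ribosomal protein genes, and the 44 other members tested had a median of 0.0102. The median of all genes was -0.00725. An analysis of variance with the same limits also called 0 members, adjusted or not.

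The difference between the responses to the PCA and the primary pollutants was tested in the same fit, and it passed in no member, while 0.439% of 17540 genes passed. Of the 54 members, 12 reached an unadjusted p of 0.05 (17.6% of all genes), 10 with the lower value after the PCA pollutants. The lowest adjusted p was 0.088, for TRIM37 at -0.47, and TRIM31 at -0.81 had 0.0889. TRIM31 passed with a signal limit of 100 (adjusted p = 0.0387) and with a trended, robust prior (adjusted p = 0.023), but with the controls exchanged its difference was -0.31 (adjusted p = 0.372), by adjusted analysis of variance it had an adjusted p of 0.192, and with an array left out the adjusted p ran from 0.0961 to 0.28. TRIM68 gave 8.41 and 8.55 after the primary pollutants against 8.22 and 8.36, a response of 0.19, and -0.31 after the PCA pollutants, a difference of -0.50 (adjusted p = 0.103). With the controls exchanged the difference was -0.16 (adjusted p = 0.493) and the PCA value -0.14 (adjusted p = 0.243), so both depend on the choice of control. Next by p were TRIM48 (0.77, adjusted p = 0.122), whose test rests on 1 PCA array, and TRIM24 (-0.35, adjusted p = 0.138). The rest of the 12 were TRIM32, TRIM52, TRIM29, TRIM16, TRIM4, TRIM59 and TRIM26. Between the control groups no member changed (0% of 17310 genes did), and 2 members reached an unadjusted p of 0.05 in limma, beside 4.97% of all genes. These were TRIM24, 0.17 higher in the evening than in the morning control, and TRIM2, a neuronal ligase for neurofilament light chain, 0.24 higher (both adjusted p = 1). TRIM31 was 0.25 higher (adjusted p = 1).

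TRIM31 lies on chromosome 6 in the class I region of the major histocompatibility complex, where TRIM31, TRIM40, TRIM10, TRIM15 and TRIM26 follow each other with 0 coding genes between. Their values after the PCA pollutants were -0.85 for TRIM31, 0.11 for TRIM40 (adjusted p = 0.476), 0.19 for TRIM10 (adjusted p = 0.106), 0.06 for TRIM15 (adjusted p = 0.701) and -0.35 for TRIM26. The genes at both ends of the run lay below 0 with an adjusted p under 0.05, and those between lay above 0, though TRIM15 gave -0.01 with arrays centred on their medians. TRIM40 dampens NF-kB signalling and TRIM10 acts in red cell development. On chromosome 5, TRIM7 gave 0.11 (adjusted p = 0.366), its neighbour TRIM41 -0.03 (adjusted p = 0.761) and TRIM52, 1 coding gene further on, -0.54. TRIM5 and TRIM22, with 3 coding genes between them on chromosome 11, gave -0.09 and -0.24. The other members that the naming rule takes in were TRIM16, a galectin partner in autophagy, which gave 10.94 and 10.92 against 10.78 and 10.72 (-0.18, adjusted p = 0.0998), and TRIM42, which gave 5.26 and 5.34 against 5.37 and 5.77 (0.27, adjusted p = 0.233).

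Of 8 TRIM relatives outside the symbol rule, 7 were tested and TRIML2 rose, where 0.876% of all genes rose. Its log2 signal was 8.66 and 8.67 in the evening control and 9.48 and 9.21 after the PCA pollutants (0.68, SE 0.133, adjusted p = 0.0148), and 9.45 and 9.61 after the primary pollutants against 8.88 and 9.21 (0.48, adjusted p = 0.465). Both mixtures gave arrays above their own control. The evening control of TRIML2 lay 0.38 below the morning control (unadjusted p = 0.0238, adjusted p = 1 in limma), and the PCA mean of 9.34 stood nearer to the morning control mean of 9.04 than to the evening control mean of 8.67. The microtubule ligases MID1 and MID2 gave -0.11 and -0.04 after the PCA pollutants (adjusted p = 0.241 and 0.721). Of 6 butyrophilins, which mostly share the SPRY domain but have no RING and whose BTN3A group activates gamma-delta T cells, BTN3A1 and BTN3A3 fell. Of all genes tested 2.66% fell, and with 6 members the list is given as a description. BTN3A1 gave 6.15 and 6.44 after the PCA pollutants, both below its evening control arrays (-0.79, adjusted p = 0.00704). BTN3A3 gave 6.47 and 6.44 against 5.79 and 5.80 (-0.66, adjusted p = 0.0025). BTN3A2 lay lower by less than the fold limit (-0.52, adjusted p = 0.0168), where 14.1% of all genes lay lower past the test at any fold. With exchanged controls neither BTN3A1 nor BTN3A3 passed both limits, and without the second evening control array only BTN3A3 did.

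Of 18 sensing proteins that TRIM ligases modify or work with, 17 were measured and none changed, with a median of -0.0389 after the PCA pollutants. The RNA sensor gene IFIH1 (MDA5) gave 5.70 and 5.65 against 4.90 and 5.34 (-0.56, adjusted p = 0.0254), and the DNA sensor gene CGAS 7.56 and 7.59 against 8.25 and 7.86 (0.48, adjusted p = 0.0367). In all, 5 of the 17 passed without the fold limit, 3 lower (IFIH1, TAB2 and MAVS) and 2 higher (CGAS and IRF7), which is 29.4% beside 19.7% of all genes. RIGI, the sensor that TRIM25 and TRIM4 modify, gave -0.04 (adjusted p = 0.779). Of 12 ubiquitin-conjugating enzymes that supply TRIM ligases, 6 were measured and none changed (median -0.00678), with UBE2N, the enzyme of non-degradative ubiquitin chains, at 0.23 (adjusted p = 0.0617) and UBE2L6, the ISG15 enzyme, at -0.24 (adjusted p = 0.121) as the 2 at an unadjusted p under 0.05 in limma.

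The interferon receptors and their signalling genes had 14 of 16 members measured, and none changed after the PCA pollutants. Their median was -0.242 with 11 of 14 below 0, and 4 lay lower without the fold limit: JAK1 (-0.48, adjusted p = 0.00863), IL10RB (-0.33, adjusted p = 0.0169), IFNAR2 (-0.53, adjusted p = 0.0264) and TYK2 (-0.27, adjusted p = 0.0346). Of all genes, 50.3% lay below 0 and 14.1% lay lower past the test at any fold. Of 40 other interferon-induced genes, 38 were tested, 7 fell and 1 rose, with a median of -0.135. Beside these, 2.66% of all genes fell and 0.876% rose. OAS1, which makes the activator of RNase L, was the 1 that rose (1.28, SE 0.0854, adjusted p = 0.000699). PARP9 (-1.12), IFIT1 (-1.08), DTX3L (-0.89), PARP14 (-0.88), HERC6 (-0.75), IFI35 (-0.73) and SAMD9 (-0.66) fell. The classical markers ISG15, at 0.08 (adjusted p = 0.497), and MX1, at -0.37 (adjusted p = 0.0498), did not change by the rule used here. Some of these genes were known to have changed on these arrays when the list was written, so the counts of this list are given as a description.

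**Figure D4:**
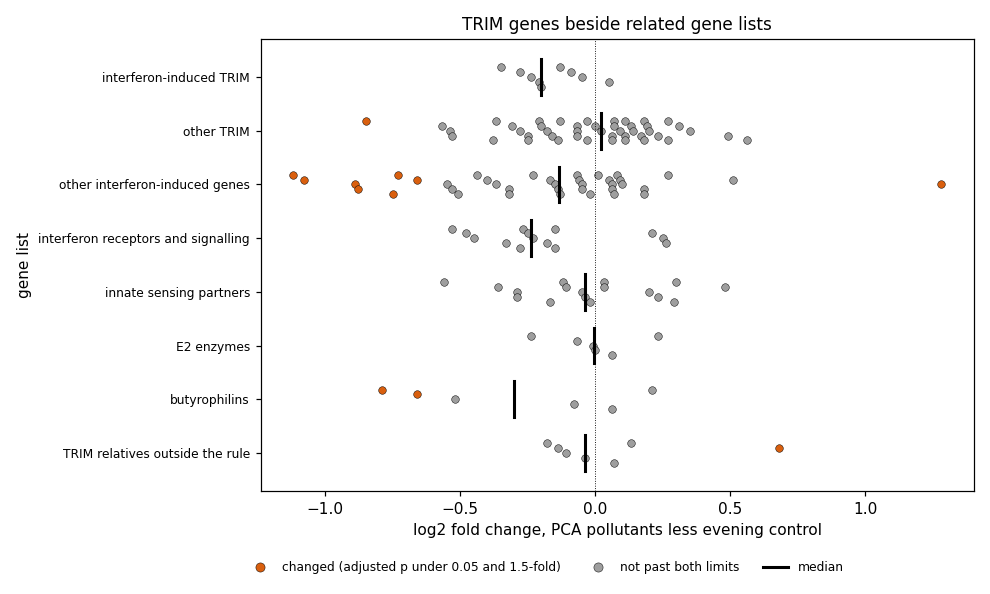
Log2 fold change after the PCA pollutants (x axis) of each tested gene in the TRIM lists and related lists (y axis), with points for genes, orange where the gene changed, and a bar at the median. The interferon-induced TRIM genes lie between -0.35 and 0.05 and the other TRIM genes between -0.85 and 0.56, while the other interferon-induced genes reach from -1.12 to 1.28.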

How the data were processed

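The authors normalized the 8 Human Gene 1.0 ST arrays by robust multichip average, and the deposited values are log2 signals of 28869 probe sets. Partek 6.4 is named in the submitters' processing notes. The values were used as they are. Probe sets were named from the platform annotation, and 19310 carry 1 symbol.

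Probe sets entered a test if any array of the comparison had a signal of 30 or more. One limma 3.58.1 model (lmFit and eBayes, R 4.3.3) held the means of the 4 groups, with Benjamini-Hochberg adjustment over all probe sets tested. Medians and counts of lists are descriptions. Members and lists were chosen with earlier results of these data known. The text names members that changed, the interferon-induced list, TRIM22, TRIM31 and TRIM52 as named by the study, the 10 members of smallest p for the PCA pollutants and 5 for each other contrast, the 3 of highest and lowest mean signal, and neighbouring members. From each related list it names called genes and up to 4 of smallest p, and TAB3, RIGI, NLRP3, MID1, MID2, ISG15, MX1 and UBE2L6 were added after their values were seen, as was TRIM32, while TRIM33 and TRIM66 complete a class.

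The scripts were first tested on simulated data. Alternatives changed the filter, the arrays in the fit, the prior, the test, the thresholds, the scaling, the probe set summary, the controls, the replicate block and each array in turn. The number of arrays limits the precision. Figures used matplotlib 3.10.9 (Python 3.11.15).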

Additional observations from a re-analysis of the deposited data

How the results depend on the processing

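With 2 arrays per group of a single exposure run, the precision is limited by the number of arrays. Of 759 alternatives to 35 member values, 719 kept direction and side of the limits, and of 286 alternatives to 15 family summaries, 239 kept their value within the limits set. Part of these counts was fixed in advance, since alternatives to the test alone and the replicate block cannot alter a log2 difference. Nor can leaving out an array of the other comparison, so the counts are no measure of stability. The cause of the changes was not tested.

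TRIM31 fell under every alternative except the test against 1.5-fold (adjusted p = 1), at -1.03 to -0.67 with an array left out. The count of members called for the PCA pollutants, 1, became 12 without the fold limit, 0 under the test against 1.5-fold, 4 with arrays centred on their medians, 3 with scaling to ribosomal protein genes, 2 with exchanged controls and 1 to 2 with an array left out. For the difference between responses the count of 0 became 1 with a signal limit of 100, 1 with a trended and robust prior and 2 by unadjusted analysis of variance. For the primary pollutants and between controls it was 0 throughout. TRIM48, whose test rests on 1 PCA array, is counted without the fold limit, with ribosomal scaling and by unadjusted analysis of variance. The count of 12 at any fold moved with an array left out, a fit that leaves 1 array in a group and is less precise for all genes. Other interferon-induced genes called, 8, became 14 without the fold limit and 1 under the test against 1.5-fold. Among the 14, IFI44L reached the signal limit only on its PCA arrays (5.23 and 5.05 against 4.61 and 4.65), so its value supports nothing. Butyrophilins called, 2, became 1 with a signal limit of 100, 1 by adjusted analysis of variance, 0 under the test against 1.5-fold, 1 with ribosomal scaling, 0 with exchanged controls and 1 to 3 with an array left out.

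The interferon-induced TRIM median for the primary pollutants (-0.0993) became -0.00743 with ribosomal scaling and -0.151 to -0.0787 with an array left out. For the PCA pollutants (-0.201) it became -0.262 with median centring, -0.0792 with ribosomal scaling and -0.232 to -0.0761 with an array left out. For the difference (-0.0354) it became -0.145 with a signal limit of 100 and ranged from -0.163 to 0.0606 with an array left out, and between controls (0.0522) it became 0.13 with ribosomal scaling. The median of the other members for the primary pollutants (0.0102) became 0.102 with ribosomal scaling and -0.026 to 0.0574 with an array left out. For the PCA pollutants (0.0199) it became -0.0312 with a signal limit of 100, -0.0407 with median centring, 0.142 with ribosomal scaling and -0.0443 to 0.0282 with an array left out. For the difference (-0.0084) it became -0.0509 with median centring, -0.0369 after quantile normalization, 0.0218 with ribosomal scaling and -0.0467 to 0.0589 with an array left out. Between controls (0.0206) it became 0.0987 with ribosomal scaling.

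The sign of some small differences turned, none of them past the limits. With median centring TRIM15 gave -0.01, TRIM56 -0.01 and TRIM63 a value of 0 after rounding. After quantile normalization TRIM5 gave 0.01 and TRIM63 -0.08. With ribosomal scaling TRIM41 gave 0.09, TRIM5 0.03, TRIM69 0.08 and, for the primary pollutants, TRIM31 0.06. With exchanged controls TRIM25 gave 0.02. With an array left out TRIM15 ranged from -0.04 to 0.15, TRIM41 from -0.07 to 0.01, TRIM56 from -0.01 to 0.12, TRIM63 from -0.08 to 0.19, TRIM69 from -0.16 to 0.07 and, for the primary pollutants, TRIM31 from -0.1 to 0.03.

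The labels do not say whether same-numbered arrays are pairs. Over 25412 probe sets the deviations of same-numbered arrays correlated at -0.0975 in the morning and 0.00477 in the evening groups. These values cannot show how the cultures were handled. With the number as a replicate block, 1 member was called for the PCA pollutants (TRIM31, adjusted p = 0.0091), 0 in each other comparison and 11 at any fold in place of 12. Medians stayed as they were, since a block with both numbers in every group cannot alter a difference of group means.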
